A study of Mus musculus with 25 samples.

Results

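Long-term hematopoietic stem cells carrying the activated JAK2 kinase were compared with stem cells of the control genotype 2 weeks after the mutation was switched on. The comparison takes 8 of the 25 sequenced libraries, 4 a side, chosen by genotype and time label alone. The mutant libraries are labelled SclCre;V617F;GFP, which names an Scl-driven Cre, the V617F mutation and a GFP reporter. The controls are labelled SclCre;GFP and are WT for JAK2 by the study design, so by label both groups carry the Cre and the reporter. All libraries came from recipient mice that had been engrafted with donor bone marrow and given tamoxifen 16 weeks later, which activates the inducible construct. Stem cells were sorted as Lin−Sca1+cKit+CD48−CD150+ straight into lysis buffer, and unstranded libraries were made from polyA RNA with SMART-Seq v4. The labels give no number of cells, donors or pooled animals, nor the age or strain of the mice, so p-values measure the spread between these libraries. No control libraries of 4 weeks were analysed here, and both groups compared belong to the batch of 2 weeks.

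JAK2 is the tyrosine kinase that sits on the cytoplasmic tails of the receptors for erythropoietin, G-CSF, GM-CSF, IL-3 and interferon gamma. It phosphorylates STAT factors, above all STAT5 and STAT3 in blood cells, which enter the nucleus and switch on feedback inhibitors of the SOCS family and genes of growth and survival. The V617F change lies in the pseudokinase domain that normally restrains the enzyme, and it drives myeloproliferative neoplasms, in which red cells, platelets or granulocytes are overproduced from a mutant stem cell. The study asked how IL-1 bears on the early expansion of such cells, and the present comparison sets mutant against control cells with the IL-1 genes intact by label.

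The 8 libraries held 21990959 to 31488657 counts over genes, and 13238 to 13491 genes were detected in each. Levels are given in CPM, the usual scaled share of a gene in its library's total over genes. Libraries of 1 group correlated at r = 0.934 to 0.946 across genes on the log2 scale among the controls and at 0.949 to 0.962 among the mutants. WT-labelled library 4 correlated with the mutant libraries at 0.955 to 0.962, higher than with its own group, whereas WT-labelled libraries 1 to 3 correlated with them at 0.933 to 0.95. On the first principal component, with 21.3% of the variance, WT-labelled library 4 scored 18.4, between mutant scores of 2.36 and 42.4, and the other 3 controls scored −33.9 to −44.7. WT-labelled library 3 was low in the Y-linked genes Kdm5d (2.85 CPM against 45 to 50.3 in the other controls), Uty (23.9 against 50.9 to 79.8) and Ddx3y (46.7 against 123 to 195). The controls were therefore not uniform, and their values are given library by library.

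The construct sequences counted with the genes check the labels. Human JAK2, the source of the mutant kinase, was counted in 2 parts. Part 1 reached 132, 115, 100.4 and 123 CPM in mutant libraries 1 to 4 and 0.262, 0.0347, 0.0732 and 0.725 CPM in the controls, the last from 20 reads in WT-labelled library 4. Part 2 stood at 39.7, 52.4, 54.2 and 41.7 CPM in the mutants and at 0.187 CPM or less in each control. CreERT2, the tamoxifen-activated recombinase, gave 247, 324, 313 and 279 CPM in the mutants but 0, 0, 1 and 0 reads in the controls, although their label names SclCre. The controls are called WT-labelled throughout for that reason. Reads of mutant JAK2 and of CreERT2 separate the same libraries, so the mutation and the Cre construct cannot be told apart in any gene difference given here. All 4 mutant libraries lay above all 4 controls for these 3 sequences, by 8.66, 8.03 and 11.39 on the scale of log2(CPM + 0.1). Each difference gave the smallest p that an exact two-sided permutation test of 4 against 4 allows (0.0286, adjusted p = 0.0381 over the 4 constructs).

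The GFP reporter did not separate the genotypes. pEGFP was even in the mutants, at 476, 489, 479 and 465 CPM, and uneven in the controls, at 1027, 519.5, 3.04 and 48.8 CPM. The exact two-sided permutation test gave p = 0.429 for the difference (log2 2.33, adjusted p = 0.429), and without WT-labelled libraries 3 and 4 the difference turned to −0.61. WT-labelled libraries 1 and 2 thus stood at or above the mutants in pEGFP and WT-labelled libraries 3 and 4 far below. Whether this bears on the gene levels of these libraries was not tested beyond leaving them out.

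**Figure D1:**
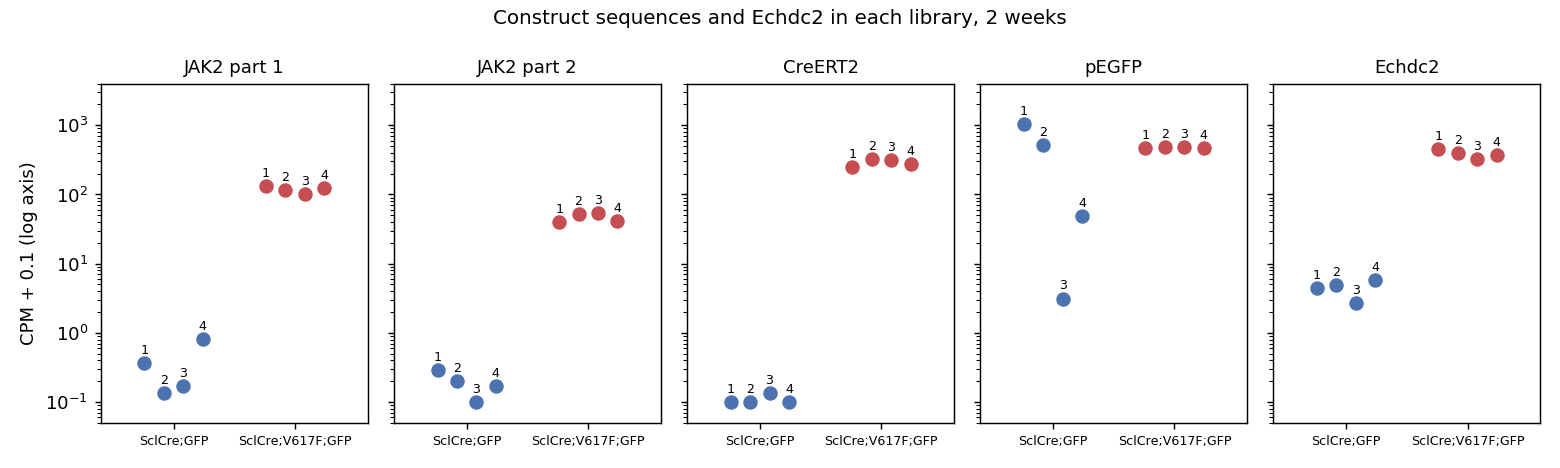
Level of the 4 construct sequences and of Echdc2 in each library at 2 weeks, as CPM + 0.1 on a log axis, with SclCre;GFP libraries in blue, SclCre;V617F;GFP libraries in red and the replicate number above each point. Both JAK2 parts, CreERT2 and Echdc2 were high in all 4 mutant libraries and low in all 4 controls, whereas pEGFP ran from 3.04 to 1027 CPM within the controls.

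Across the transcriptome 1 gene passed the test. Of 13630 genes tested with edgeR's quasi-likelihood test in a fit of all 7 groups of the series, 1 gene (0.00734%) rose and 0 genes (0%) fell in mutant cells at an adjusted p under 0.05. At an unadjusted p under 0.05 edgeR gave 145 genes higher (1.06%) and 165 lower (1.21%). Over the alternative settings that total of 310 genes ran from 166 (without WT-labelled libraries 1 and 2) to 929 (limma voom). An edgeR fit of the 8 libraries alone gave 784 of 13249 genes. With the 16 libraries of 2 weeks it was 696 of 13534. This count thus depended on the libraries fitted and the method, and the cause was not tested. DESeq2 called 8 genes and limma voom 2 on the same contrast, and both lists hold the gene called by edgeR. Libraries were unstranded, so reads of a gene and of an overlapping antisense gene cannot be told apart. The level of every mutant library lay above every control for 255 genes (1.87%) and below for 245 (1.8%), counted on normalized log2 CPM. Genes with a positive log2 fold change made up 50.5%, and the median over genes was 0.00. The design had the precision to bound most genes: for 9612 of the 13630 genes (70.52%) the 95% interval of the log2 fold change lay within 1 unit of 0, and for 97.01% of those at a mean log2 CPM of 5 or more. No gene at a mean log2 CPM under 1 had such an interval. In this comparison of 2 weeks, unless another adjusted p is printed, the genes named below did not pass and had an edgeR adjusted p of 1. Adjusted p of the other mutant groups against the same controls is given where their fold changes are, from the same fit.

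**Figure D2:**
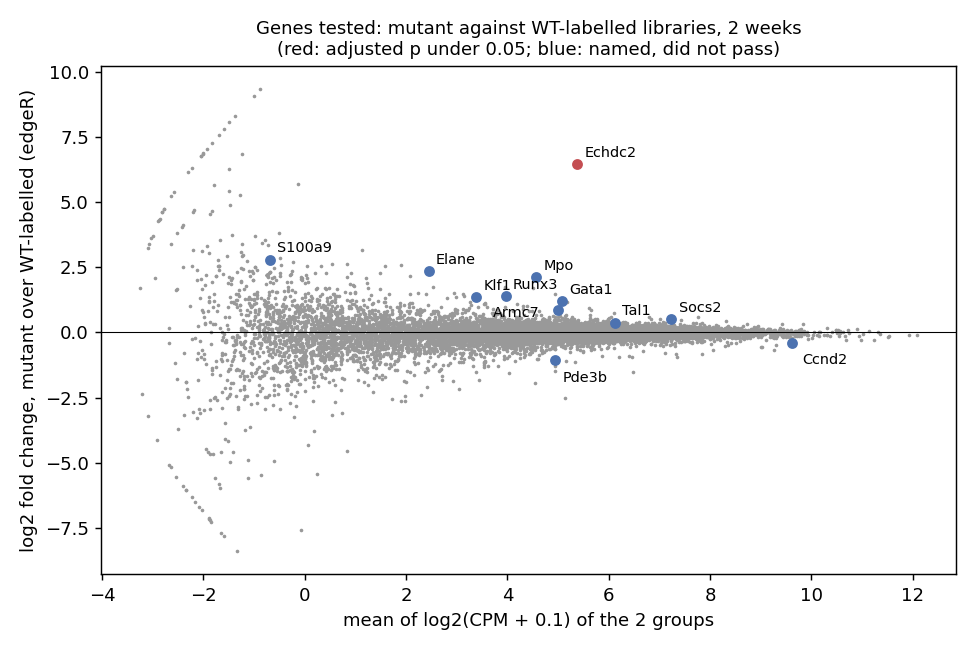
Log2 fold change of each of 13630 genes, mutant over WT-labelled, against its mean log2(CPM + 0.1) over both groups; Echdc2 (red) passed the test and the other named genes (blue) did not. The rows of points that fan out at the lowest levels are genes with reads in few libraries, and the cloud narrows around 0 as the level rises.

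The gene that rose was Echdc2 (ENSMUSG00000028601, chr4:108165437-108179308 on the plus strand, mm10), a mitochondrial member of the enoyl-CoA hydratase family, the enzymes that hydrate unsaturated acyl-CoA during fatty acid breakdown. Its level was 452, 399, 324 and 373 CPM in mutant libraries 1 to 4 and 4.42, 4.83, 2.63 and 5.73 CPM in WT-labelled libraries 1 to 4. The groups did not overlap, and the lowest mutant library stood far above the highest control. Mean levels were 387 ± 53.3 and 4.4 ± 1.3 CPM (SD, n = 4 each), a ratio of 87.9, and the fitted log2 fold change was 6.45 (SE 0.24, adjusted p = 1.44e-14, edgeR). Over 20 alternative settings it ran from 6.27 to 6.61 and passed in each. Echdc2 was already called in earlier results of these data, so the comparison describes it and does not serve as a fresh test.

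The other mutant groups of the series carried high Echdc2 as well. It averaged 418 CPM (277 to 498) in SclCre;V617F;GFP cells of 4 weeks (n = 3), 679 CPM (576 to 743) in mutant cells lacking Il1b (SclCre;V617F;IL-1b-/-GFP) at 2 weeks and 697 CPM (661 to 736) in mutant cells lacking Il1r1 (SclCre;V617F;IL-1R1-/-GFP) at 2 weeks (n = 4 each). Against the same 4 WT-labelled libraries, which all these comparisons share, the log2 fold changes were 6.60 (SE 0.25), 7.26 (SE 0.25) and 7.30 (SE 0.25) in that order, and each passed (edgeR adjusted p = 1.4e-14, 2.18e-15 and 1.98e-15). Every mutant library in these groups thus lay above every control, with the highest values in the groups without an IL-1 gene.

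The stretch just before the Echdc2 start is shown because this was the gene that passed. It comes from the RefSeq promoter table of GRCm38.p6, plus strand, chr4:108165187-108165436, and capitals mark CG dinucleotides.
Echdc2 upstream: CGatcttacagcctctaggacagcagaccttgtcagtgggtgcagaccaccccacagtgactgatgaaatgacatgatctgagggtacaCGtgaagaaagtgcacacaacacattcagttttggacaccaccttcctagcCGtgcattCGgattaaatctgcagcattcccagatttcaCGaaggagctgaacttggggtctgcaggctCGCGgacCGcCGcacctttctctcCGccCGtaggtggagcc
These 250 bases hold 11 CG dinucleotides, most of them in the last stretch before the start. With the 50 bases after the start the window holds 17, against a median of 7 over the 32851 windows of the table, and 31.41% of windows hold as many or more. The STAT5 motif TTCNNNGAA, which reads the same on both strands, has 0 matches in the Echdc2 window and at least 1 match in 8.298% of all windows.

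Among the genes around Echdc2, none passed in this comparison. Of 25 genes tested within 1 Mb, the nearest on the lower side is Scp2, which encodes sterol carrier protein 2 and peroxisomal thiolase SCPx and ends 20.44 kb before Echdc2 begins. Scp2 read 279, 269, 240.4 and 258 CPM in the mutants and 195, 187, 197 and 219 CPM in the controls. The groups did not overlap, and the log2 fold change was 0.38 (SE 0.11, unadjusted p = 0.00149, edgeR), which did not pass. Scp2 averaged 264 CPM in mutant cells of 4 weeks, 325 without Il1b and 322 without Il1r1, with log2 fold changes against the shared controls of 0.44 (SE 0.11), 0.69 (SE 0.11) and 0.69 (SE 0.11). It rose without Il1b (edgeR adjusted p = 0.00902) and without Il1r1 (adjusted p = 0.00567) and did not pass at 4 weeks (adjusted p = 0.089). Zyg11b, the next tested gene on the upper side, averaged 49.4 and 49.2 CPM in mutants and controls (log2 0.00, SE 0.27). Cpt2, the inner-membrane carnitine palmitoyltransferase of fatty acid import, averaged 44.9 and 49.8 CPM (log2 −0.16, SE 0.19). The 23 neighbours other than Echdc2 and Scp2 had log2 fold changes of −0.78 to 0.34 with a median of 0.00, 11 of them above 0, 10 below and 2 at 0.00, and the groups did not overlap for 1, Txndc12. For 19 of the 23 the 95% interval lay within 1 unit of 0.

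**Figure D3:**
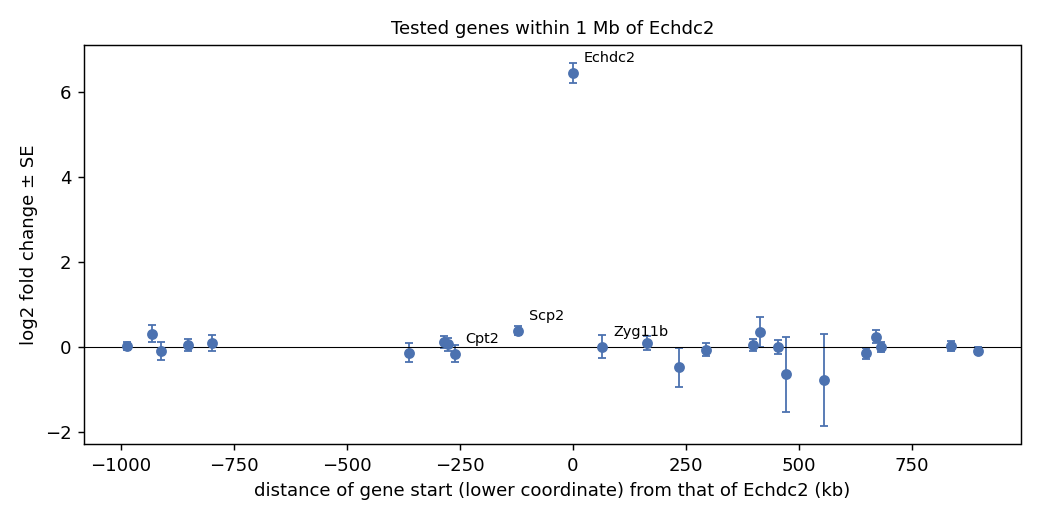
Log2 fold change (points) and SE (bars), mutant over WT-labelled, of the 25 tested genes within 1 Mb, against the distance of their lower coordinate from that of Echdc2 in kb. Echdc2 stands at 6.45 and every neighbour lies between −0.78 and 0.38.

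Relatives of Echdc2 gave no difference that passed. Per kb of exon, Echdc2 stood at 1.92 ± 0.568 CPM in the controls and 169 ± 23.3 in the mutants (SD, n = 4). Echdc1, an ethylmalonyl-CoA decarboxylase, was at 48.2 and 44.4 CPM per kb (log2 −0.13, SE 0.12), Echdc3 at 1.02 and 1.32 (0.36, SE 0.48), and Auh, a hydratase of leucine breakdown, at 5.35 and 5.84 (0.12, SE 0.12). Echdc2 thus went from a level near that of Echdc3 to above that of Echdc1. Among 27 tested genes of peroxisomes and fatty acid oxidation, Echdc2 was the 1 that passed, 15 were above 0 and the median log2 fold change was 0.07. Hsd17b4, the peroxisomal multifunctional enzyme, read 103, 110, 108 and 102 CPM in the mutants and 78.5, 78.6, 87 and 81.6 in the controls. Those values did not overlap (log2 0.37, SE 0.12, unadjusted p = 0.00439, edgeR), and the gene did not pass.

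The mouse's own Jak2 (ENSMUSG00000024789, chr19:29251828-29313080) read 83.2, 113, 102 and 118 CPM in the mutants and 149, 77.2, 118 and 129 in the controls. The groups overlapped (log2 −0.19, SE 0.17, 95% interval −0.55 to 0.16). The signal transducers were level too: Stat5a averaged 214 and 219 CPM (log2 −0.04, SE 0.12) and Stat5b 181 and 172 (0.06, SE 0.11). Of 11 kinases and STAT factors, 5 were above 0, with a median of −0.04. The largest differences among them were at Tyk2, the kinase of interferon and IL-12 receptors (75.7 against 53.6 CPM, log2 0.49, SE 0.27), and Stat2, the interferon-specific STAT (71.7 against 55.7, 0.36, SE 0.31). Tyk2 overlapped between the groups and Stat2 did not.

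Of 16 tested receptors and subunits that use JAK2, 9 were above 0 and the median was 0.07. Csf3r, the G-CSF receptor, read 94.2, 65, 95.8 and 67.9 CPM in the mutants and 67.5, 45.3, 60.8 and 41.2 in the controls, and WT-labelled library 1 overlapped the mutant range (log2 0.58, SE 0.27). Csf2rb, the beta subunit shared by the GM-CSF, IL-3 and IL-5 receptors, averaged 28 ± 10.8 against 13.9 ± 7.46 CPM (log2 1.01, SE 0.46), and reads could be split with its near-identical copy Csf2rb2. Ifngr2, the signalling chain of the interferon gamma receptor, read 34.2, 35.6, 35.7 and 39.7 CPM against 28.4, 24.1, 22.4 and 29.3, with no overlap (log2 0.47, SE 0.21). Epor, the erythropoietin receptor, averaged 21.9 against 14.5 CPM (0.58, SE 0.34). Lifr, the receptor of leukemia inhibitory factor, was nearly unread, at 0.0715 CPM in the mutants and 1.04 in the controls. None of the 16 passed, and the unadjusted edgeR p of those named ran from 0.0342 (Ifngr2) to 0.104 (Epor).

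No feedback inhibitor of the pathway passed. Socs2, a STAT5-induced brake on cytokine receptors, read 176, 167, 151 and 230 CPM in the mutants and 187, 97.9, 101 and 118 in the controls. WT-labelled library 1 lay among the mutants and the other controls below them (log2 0.52, SE 0.24, unadjusted p = 0.0424, edgeR). Cish, the closely related STAT5 target, read 122, 90.6, 83.9 and 246 CPM against 91.4, 56.9, 87.9 and 145, so the groups overlapped (log2 0.50, SE 0.33). Pim1, a STAT5-induced survival kinase, read 246, 203, 154.5 and 194 CPM against 249, 122, 136 and 209 (log2 0.15, SE 0.24). Of 19 feedback genes 8 were above 0, with a median of −0.01. In mutant cells without Il1r1 at 2 weeks Socs2 averaged 292 CPM and without Il1b 204.5, with log2 fold changes of 1.22 (SE 0.25) and 0.69 (SE 0.24) against the shared controls, neither of which passed (edgeR adjusted p = 0.0721 and 1).

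The start of Cish is shown as the window of a gene long known to carry paired STAT5 motifs, set beside that of Echdc2. It lies at chr9:107296654-107296683 on the plus strand of GRCm38.p6 (RefSeq promoter table), and capitals mark TTCNNNGAA.
Cish motif window: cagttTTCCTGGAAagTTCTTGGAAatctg
The 2 matches begin at bases 1 and 12 counted from the start as 1. Socs3 had the motif in its 1 window and Bcl6 in 2 of 2, whereas the windows of Pim1 (0 of 2), Socs1 (0 of 1), Armc7 (0 of 1) and Scp2 (0 of 1) held none. A match in letters is a description and says nothing of binding.

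No other STAT5 or STAT3 target passed. Of 25 tested, 11 were above 0 and 14 below, with a median of −0.01, and the 3 of lowest p, Ccnd2, Id2 and Ccnd1, were all below 0. Ccnd2, the D-type cyclin of early blood cells, read 673, 736, 664 and 671 CPM in the mutants and 678, 968, 1074 and 841 in the controls. Its mutant libraries were tightly grouped and WT-labelled library 1 lay within their range (log2 −0.39, SE 0.13, unadjusted p = 0.0085, edgeR). Ccnd1 averaged 41.1 against 59.5 CPM (log2 −0.55, SE 0.32), and Id2, an inhibitor of helix-loop-helix factors, 14.1 against 20.8 (−0.57, SE 0.32). Bcl6, a transcriptional repressor at low level, averaged 1.55 against 3.86 CPM without overlap (log2 −1.32, SE 0.92).

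The IL-1 genes are intact by label in both groups, and the ligand was little read. Il1b, which encodes IL-1β, had 0, 30, 4 and 6 reads in mutant libraries 1 to 4 and 0, 4, 0 and 0 in the controls (log2 3.13, SE 1.73, 95% interval −0.52 to 6.78). In mutant libraries of 4 weeks it ran from 0.0313 to 13.5 CPM. Il1r1, the signalling receptor, read 20.5, 13.3, 24.5 and 8.64 CPM in the mutants and 20.6, 17.3, 6.11 and 16.3 in the controls, with overlap (log2 0.14, SE 0.60). Its direction turned without WT-labelled library 3 (−0.12) or mutant library 3 (−0.10). Of 25 IL-1 pathway genes 12 were above 0 (median −0.01), and of 28 NF-kB and TNF targets 12 (median −0.04). Ikbkb, the kinase that releases NF-kB, averaged 199 against 233 CPM (log2 −0.23, SE 0.13). Ccl5, an inflammatory chemokine, read 3.53, 3.27, 1.92 and 1.95 CPM in the mutants and 0, 0.278, 1.17 and 0.725 in the controls, with no overlap at a very low level (log2 2.27, SE 1.30).

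Type I interferon genes were mostly higher by small amounts, and interferon gamma genes were not. Of 44 tested type I genes 34 were above 0 and the median was 0.11. Irf7, the amplifying factor of the response, averaged 45.2 against 28.4 CPM (log2 0.67, SE 0.41), Isg15, the ubiquitin-like modifier, 16.6 against 11.8 (0.48, SE 0.33) and Trim30a 131 against 112 (0.22, SE 0.11). None passed, and the list's median was 0.00 without WT-labelled library 4, which had the lowest mean level of the list (5.32 log2 CPM against 5.85 to 6.11 in the other controls). Of 31 interferon gamma genes 12 were above 0 (median −0.05). Gbp6, a guanylate-binding protein with a near-identical copy, Gbp10, averaged 12.1 ± 4.21 against 25.7 ± 22.5 CPM (log2 −1.10, SE 0.74), and Gbp9 20.7 against 30.7 (−0.57, SE 0.43).

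Stem cell genes were lower in the main, by small amounts. Of 48 tested, 39 were below 0 and 9 above, with a median of −0.16 beside 0.00 over all genes. The median kept its sign in every alternative, between −0.23 and −0.08. Mean log2 CPM over the list was 7.29, 6.97, 7.02 and 6.69 in WT-labelled libraries 1 to 4 and 6.73, 6.93, 6.68 and 6.73 in the mutants. WT-labelled library 4 was in the mutant range and the other controls above it. In bulk RNA, fewer cells of a kind and less of its RNA per cell cannot be told apart. Mllt3, a regulator of stem cell self-renewal, averaged 210.0 ± 25.8 CPM in the mutants and read 540, 316, 336 and 166 in the controls (log2 −0.69, SE 0.33). Nupr1, a stress-response chromatin protein, read 74.9, 75.1, 63.2 and 40.6 CPM against 169, 129, 108 and 82.8, with no overlap (log2 −0.95, SE 0.35, unadjusted p = 0.0133, edgeR). Hoxb4, a homeobox factor of self-renewal, averaged 7.71 against 12 CPM (−0.64, SE 0.27).

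The list's groups were apart for 4 genes below (1.8% of all genes) and 1 above (1.87%), named after their values were seen. Besides Nupr1 the lower ones were Bmi1, a polycomb factor (85.3 against 109 CPM, log2 −0.36, SE 0.20), Angpt1, a niche-directed ligand (965 against 1101, −0.20, SE 0.10), and Meis1, a HOX cofactor (657 against 711, −0.12, SE 0.09). The higher one was Tal1, also called Scl, the master factor of blood formation and the gene whose name the Cre label carries. Tal1 read 76, 89.8, 74.8 and 78.9 CPM in the mutants and 64.3, 59.6, 63.1 and 56.7 in the controls (log2 0.38, SE 0.11, unadjusted p = 0.00258, edgeR). It lies 6.891 Mb from Echdc2 on chromosome 4. Tal1 averaged 86.3 CPM in mutant cells of 4 weeks, 97.8 without Il1b and 94.8 without Il1r1. In these groups its log2 fold change against the shared controls was 0.54 (SE 0.12), 0.67 (SE 0.11) and 0.64 (SE 0.11). Tal1 rose without Il1b (edgeR adjusted p = 0.0137) and without Il1r1 (adjusted p = 0.0224) and did not pass at 4 weeks (adjusted p = 0.0529).

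RNA of the surface proteins used in the sort fitted the gate in both groups. Kit averaged 903 and 1058 CPM in mutants and controls (log2 −0.24, SE 0.13), Ly6a, which encodes Sca1, 189 and 151 (0.32, SE 0.27), and Slamf1, which encodes CD150, 84.3 and 98.8 (−0.23, SE 0.27). The Slamf1 difference rested on WT-labelled library 1, at 156 CPM against 75.8 to 82.9 in the other controls, and was 0.06 without it. Cd48, the marker the gate excludes, was low everywhere: 2.13, 2.76, 3.21 and 3.18 CPM in the mutants and 1.2, 0.833, 0.622 and 3.3 in the controls (log2 0.91, SE 0.61). Cd34, gained as stem cells become progenitors, read 259.9, 209, 321 and 277 CPM against 172, 88.6, 161 and 277 (0.60, SE 0.31). For Cd48 and Cd34 WT-labelled library 4 was again the control nearest to the mutants.

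Quiescence genes followed the stem cell list. Of 20 tested, 14 were below 0 (median −0.10, with the same sign in every alternative). Rb1 and Rbl2, which hold cells out of the cycle, averaged 89.1 against 116 CPM (log2 −0.39, SE 0.17) and 148 against 192 (−0.38, SE 0.16). Cdk6, the kinase that inactivates them on exit from quiescence, read 198, 213, 237 and 167 CPM in the mutants and 144, 125, 129 and 180 in the controls (0.49, SE 0.21). Only WT-labelled library 4 reached the mutant range of Cdk6. Rb1 and Rbl2 overlapped between the groups, and mutant library 2 (119 and 172 CPM) lay within the control range of both. The unadjusted edgeR p of these 3 genes was 0.0294, 0.03 and 0.0301.

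The erythroid factors Gata1 and Klf1 averaged higher in mutant cells without passing, as did Tal1, while Gfi1b, Lmo2 and Nfe2 were level. Gata1 (ENSMUSG00000031162, on chromosome X), the master factor of red cells and megakaryocytes, read 60.9, 63.1, 42 and 38.8 CPM in the mutants and 19.2, 27.4, 14.6 and 27.3 in the controls. No control reached the lowest mutant library (log2 1.20, SE 0.36, unadjusted p = 0.00326, edgeR). Klf1, the erythroid factor downstream of Gata1, read 30.2, 16.7, 13.4 and 6.14 CPM against 4.53, 8.23, 8.74 and 4.13, and mutant library 4 overlapped the controls (log2 1.36, SE 0.52). Gfi1b, a repressor of erythroid and platelet cells, averaged 180.4 against 181 CPM (log2 −0.01, SE 0.19), Lmo2, the bridging partner of Tal1, 1235 against 1300.0 (−0.08, SE 0.10) and Nfe2, a factor of globin and platelet genes, 689.6 against 727 (−0.08, SE 0.09). Of 50 erythroid genes 34 were above 0 (median 0.11), and the median turned to −0.03 without mutant library 1, which had the highest mean of the list (5.11 log2 CPM against 4.12 to 4.48 in the other mutants). Gata1 averaged 98.6 CPM (51.9 to 180) in mutant cells of 4 weeks, 58 (31.1 to 81.6) without Il1b and 63.2 (42.5 to 81) without Il1r1. Every one of these libraries lay above the 4 controls as well. Gata1 rose at 4 weeks (log2 2.21, SE 0.39, edgeR adjusted p = 0.0114), with 4-week and 2-week libraries in separate batches, and did not pass without Il1b (1.38, SE 0.37, adjusted p = 0.56) or Il1r1 (1.51, SE 0.37, adjusted p = 0.215).

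Megakaryocyte genes were mixed. Of 34 tested, 20 were above 0 (median 0.06, −0.03 without mutant library 2). Mmrn1, a platelet granule protein also made by stem cells, read 436, 708, 385 and 431 CPM in the mutants and 818, 828, 906 and 568 in the controls (log2 −0.68, SE 0.28), with mutant library 2 inside the control range. Summed over the 5 marker genes Itga2b, Pf4, Ppbp, Gp9 and Gp1bb, the level was 187 to 334 CPM in the mutants and 123 to 206 in the controls.

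Neutrophil and monocyte genes were the list furthest from 0. Of 42 listed genes 33 were tested, 29 of them above 0 and 4 below, with a median of 0.61 that stayed between 0.42 and 1.40 over the alternatives. Mean log2 CPM over the list was 2.4, 0.11, 0.59 and 1.99 in WT-labelled libraries 1 to 4 and 2.15, 3.13, 2.6 and 2.32 in the mutants. WT-labelled library 1 was thus in the mutant range, library 4 just below it and libraries 2 and 3 far below. The mutant libraries were above all controls for 6 of the 33, against 1.87% of all genes, and none passed. Mpo, the peroxidase of early granulocytes, had 2156, 1052, 1174 and 814 reads in the mutants and 458, 0, 0 and 764 in the controls (log2 2.13, SE 1.84). Elane, neutrophil elastase, had 345, 280, 456 and 171 reads against 226, 0, 0 and 30 (2.34, SE 1.67). WT-labelled libraries 2 and 3 had no read of either gene, whereas WT-labelled libraries 1 and 4 had both, so reads of these genes were uneven within the controls. S100a9, a calprotectin subunit of mature neutrophils, had 20, 54, 36 and 27 reads against 8, 8, 3 and 1 (log2 2.79, SE 0.89, unadjusted p = 0.00479, edgeR).

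The remaining 4 genes of that set were S100a8, the partner of S100a9 (1.16 against 0.494 CPM), Ngp, a granule protein (0.462 against 0.121), Csf1r, the monocyte receptor (16.3 against 12.3), and Cxcr2, a neutrophil chemokine receptor (1.68 against 0.403). All but Csf1r were near the floor of detection. Chil3 was carried by mutant library 2 alone, with 563 reads against 0 to 1 in the other mutants and 0 to 9 in the controls, and its direction turned without that library. Summed over 8 neutrophil and monocyte markers the level was 561 to 630 CPM in the mutants and 417 to 572 in the controls, most of it from Lyz2 and Csf3r. Their part in other results was not tested.

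**Figure D4:**
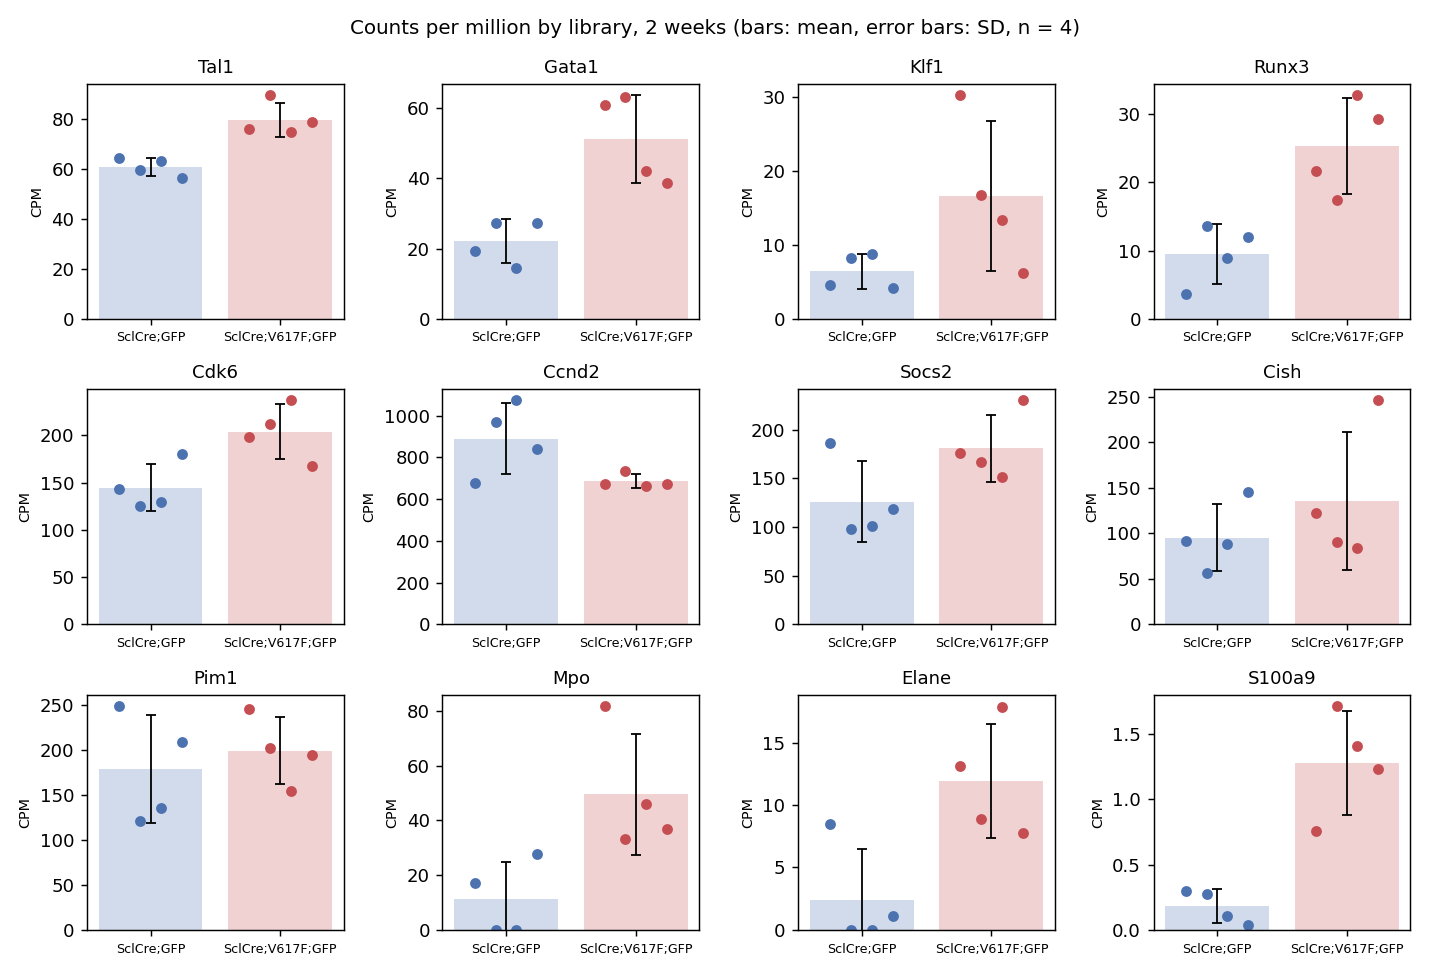
CPM by library at 2 weeks for 12 genes, with bars for the mean, error bars for the SD (n = 4, drawn from 0 up) and points for libraries 1 to 4 from left to right, SclCre;GFP in blue and SclCre;V617F;GFP in red. Points of the groups are apart for Tal1, Gata1, Runx3, S100a9 and Mpo and overlap for the others, and none of the 12 passed.

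No marker of other cells passed. Macrophage and dendritic, B, T and stromal lists had few tested members: 17 of 26, 5 of 19, 8 of 25 and 15 of 25, with medians of −0.02, 0.17, 0.14 and −0.12 that changed sign in at least 1 alternative each. Clec9a, a dendritic cell lectin receptor, read 1.78, 6.13, 2.74 and 4.23 CPM in the mutants and 7.82, 15.5, 8.56 and 9.54 in the controls, with no overlap (log2 −1.49, SE 0.81). Mrc1, the macrophage mannose receptor, had 22, 1, 0 and 8 reads in the controls and none in the mutants, at least 9.86-fold lower with the empty group set at 3 counts in all. Siglech, a plasmacytoid dendritic cell gene, had 14 reads in mutant library 2 and 0 in the rest of the 8 libraries compared. Of 11 tested mast cell, basophil and eosinophil genes 6 were above 0 and 5 below (median 0.03). Hgf, a growth factor gene of that list, averaged 35.6 against 44.8 CPM (log2 −0.33, SE 0.21). The mast cell and basophil markers summed to 4.5 to 9.05 CPM in the mutants and 0.973 to 5.05 in the controls, with Cpa3, a mast cell protease, at 5.09 against 2.5 CPM (log2 1.01, SE 0.62) and Fcer1a, the IgE receptor chain, at 1.32 against 0.338 (1.92, SE 1.05). Nkg7, a cytotoxic granule gene, read 26.6, 26.6, 34.8 and 18.5 CPM in the mutants and 5.73, 17, 9.15 and 17.8 in the controls, with no overlap (log2 1.09, SE 0.41). Klrb1c, an NK receptor gene of a family with close copies, was lower in the mutants, at 11.9 ± 12.1 against 45 ± 23.1 CPM (−1.92, SE 0.88). Sparc, a matrix protein, had 0, 25, 21 and 10 reads in the mutants and none in the controls, at least 19.6-fold higher with the empty group set at 3 counts in all. Kdr, the endothelial VEGF receptor, averaged 1.31 against 7.68 CPM (−2.54, SE 1.25), and Eng, an endothelial and stem cell co-receptor, 161 against 203 (−0.34, SE 0.14).

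Cell-cycle genes were higher on balance, and WT-labelled library 1 set much of that. Of 59 G2 and M phase genes 51 were above 0 (median 0.17), and of 49 S phase genes 37 (median 0.10). Mean log2 CPM of the S phase list was 5.47, 6.37, 6.21 and 6.28 in the controls and 6.35, 6.08, 6.25 and 6.19 in the mutants, so WT-labelled library 1 stood alone below the other 7. Without it the S phase median was −0.05 and the G2 and M phase median 0.01. Plk1, the mitotic kinase, read 33.9, 36.5, 31 and 37.2 CPM in the mutants and 13.7, 22, 21.7 and 33.5 in the controls (log2 0.59, SE 0.29). Kif20a, a kinesin of cell division, averaged 121 against 97 CPM (0.31, SE 0.18), Mcm2, of the replicative helicase, 251 against 198 (0.33, SE 0.22), and Clspn, a replication checkpoint adaptor, 18.4 against 24.7 (−0.44, SE 0.22). None of these genes passed.

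Respiratory and translation genes differed by small amounts in opposite directions. Of 101 nuclear genes of oxidative phosphorylation 82 were above 0 (median 0.08), while all 12 tested mitochondrially encoded genes were below 0 (median −0.12) and 61 of 78 ribosomal protein genes were below 0 (median −0.05). These 3 medians kept their sign in every alternative, with that of oxidative phosphorylation at 0.02 at its lowest. Mean log2 CPM of the oxidative phosphorylation list was 6.17, 6.41, 6.24 and 6.41 in the controls and 6.46, 6.37, 6.32 and 6.41 in the mutants. WT-labelled libraries 2 and 4 were thus in the mutant range, and libraries 1 and 3 below it. Uqcrc1, a core subunit of complex III, read 352, 346, 357 and 367 CPM in the mutants and 274, 314, 268 and 341 in the controls (log2 0.24, SE 0.11). mt-Cytb, the mitochondrially encoded partner in the same complex, averaged 1485 against 1806 CPM (−0.29, SE 0.14) and mt-Co1, of complex IV, 1834 against 2236 (−0.29, SE 0.14). For mt-Co1 the 3 controls other than WT-labelled library 4 exceeded every mutant library. Rpl10 read 161, 152, 149 and 147 CPM against 174, 192, 182 and 168, with no overlap (−0.24, SE 0.11), and reads of ribosomal protein genes can be split with processed copies. Of 49 MYC and ribosome biogenesis genes 34 were above 0 (median 0.03, −0.04 without WT-labelled library 1). Bop1, a factor of large-subunit assembly, averaged 89.1 against 67.6 CPM (0.39, SE 0.19).

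Immediate early genes, which cells switch on within minutes of a stimulus, were mostly lower. Of 32 tested, 28 were below 0 and the median was −0.23, between −0.36 and −0.14 over the alternatives. Mean log2 CPM over the list was 5.73, 5.24, 5.54 and 5.66 in WT-labelled libraries 1 to 4 and 5.3, 5.4, 5.23 and 5.43 in the mutants. WT-labelled library 2 was thus in the mutant range and the other controls above it. Nr4a2, a nuclear receptor that restrains stem cell cycling, read 13.8, 13.6, 17.1 and 12.3 CPM in the mutants and 26.4, 28.4, 21.4 and 25 in the controls. The groups did not overlap (log2 −0.84, SE 0.35, unadjusted p = 0.0228, edgeR). Dusp1, a MAP kinase phosphatase, read 236, 219, 293 and 355 CPM against 393, 289.8, 443 and 414 (−0.49, SE 0.24), and Ier2 averaged 266 against 327 (−0.30, SE 0.20). Dusp1 averaged 62.7 CPM in mutant cells of 4 weeks, which the labels place in another processing batch (log2 −2.58, SE 0.29 against the shared controls of 2 weeks, edgeR adjusted p = 4.14e-05).

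Of 31 p53 targets 18 were below 0 (median −0.12), with Ccng1, a cyclin G gene, at 148 against 176 CPM without overlap (log2 −0.26, SE 0.14). Glycolysis (13 of 27 above 0), cholesterol synthesis (14 of 25) and the unfolded protein response (13 of 30) had medians of −0.01, 0.01 and −0.01. Of 27 genes mutated in myeloproliferative neoplasms and clonal hematopoiesis, 12 were above 0 (median −0.01), and the 95% interval lay within 1 unit of 0 for 25. Ezh2, the polycomb methyltransferase, averaged 99.8 against 82.7 CPM (0.26, SE 0.15) and Idh2, the mitochondrial isocitrate dehydrogenase, 304 against 256 (0.24, SE 0.12).

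**Figure D5:**
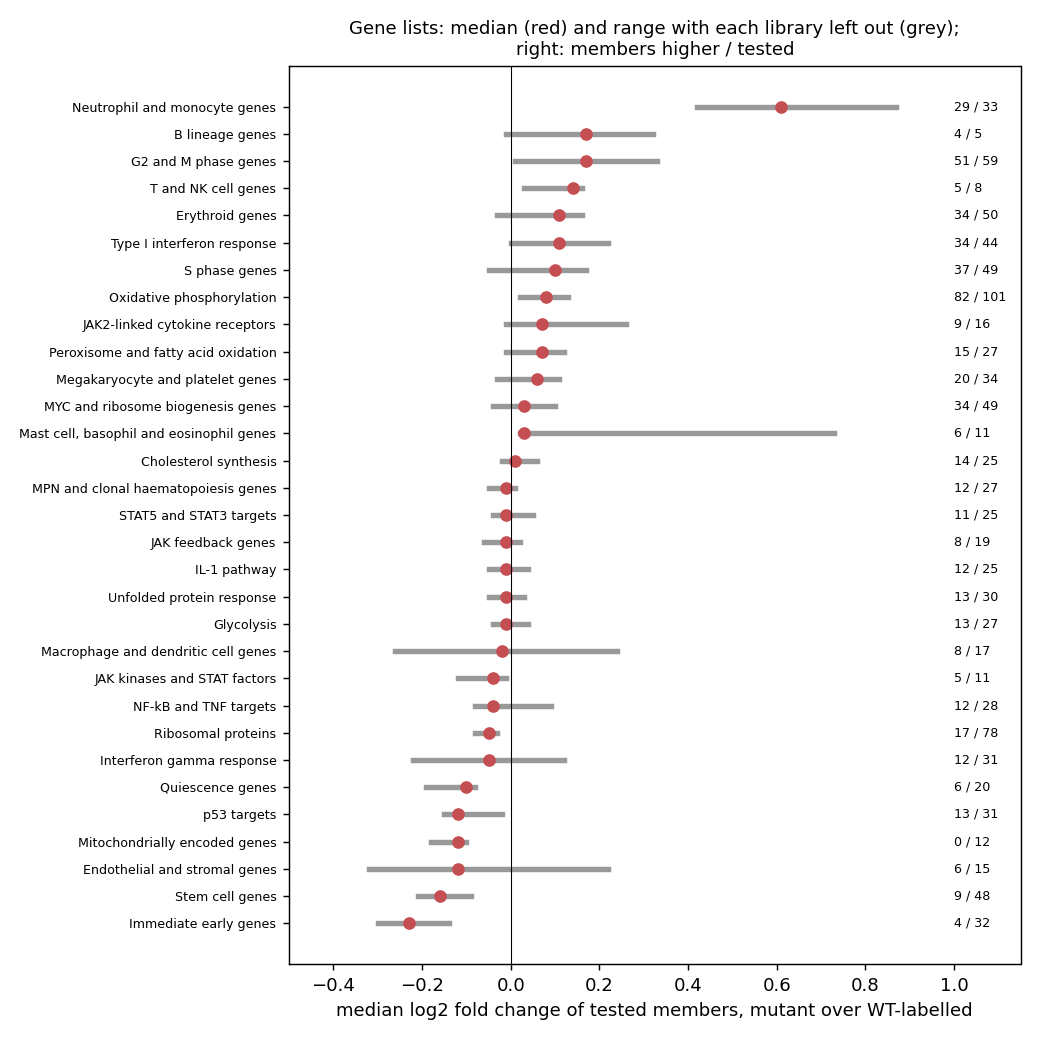
Median log2 fold change, mutant over WT-labelled, of the tested members of 31 gene lists (red points), with the range of that median when each of the 8 libraries is left out in turn (grey bars) and, at the right, members above 0 out of members tested. Neutrophil and monocyte genes sit at 0.61 and immediate early genes at −0.23; most other lists lie within 0.2 of 0.

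After Echdc2, the gene of lowest p was Armc7 (ENSMUSG00000057219, chr11:115475667-115490467), an armadillo-repeat gene. It read 47.4, 41.2, 46.5 and 38.1 CPM in the mutants and 21.7, 27.9, 19 and 24.8 in the controls. Every mutant library was above every control (log2 0.88, SE 0.17, adjusted p = 0.195, edgeR), and DESeq2 (adjusted p = 8.1e-04) and limma voom (adjusted p = 0.0265) called it. Over the alternatives its adjusted p ran from 8.1e-04 to 1 and its log2 fold change from 0.80 to 0.98. Mutant cells of 4 weeks averaged 43.1 CPM (37.2 to 46.2), and there Armc7 rose against the shared controls (log2 0.92, SE 0.18, edgeR adjusted p = 0.0205). Mutant cells without Il1b averaged 24.3 CPM (21.1 to 26.9) and those without Il1r1 23.9 (20.8 to 27.7), in the range of the controls, whose mean was 23.4 ± 3.84 (SD, n = 4). Neither passed (edgeR adjusted p = 1 in both). Armc7 was thus high in the 7 libraries of the SclCre;V617F;GFP genotype and low in the 12 others described here.

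The other genes of lowest p did not pass. Runx3, a transcription factor of the myeloid and lymphoid lines, read 21.6, 17.4, 32.8 and 29.2 CPM in the mutants and 3.59, 13.5, 8.96 and 12 in the controls. The groups did not overlap (log2 1.39, SE 0.39, unadjusted p = 0.00183, edgeR). Igfbp4, which binds insulin-like growth factors, read 219, 249, 250.1 and 243 CPM against 201, 189, 184 and 173 (0.36, SE 0.10), and Lrmp averaged 156 against 117 (0.40, SE 0.11). Lower genes were Klhl9, an adaptor of a ubiquitin ligase (98 against 133 CPM, −0.44, SE 0.11, unadjusted p = 6.08e-04, edgeR), Tmed8 (18.1 against 28.1, −0.64, SE 0.18) and Spred1, an inhibitor of RAS signalling (153 against 195, −0.36, SE 0.11). Myom1 (7.28 against 18.1 CPM, −1.32, SE 0.42) and Pde3b, a phosphodiesterase of cyclic nucleotides (21.4 against 44.1, −1.05, SE 0.34), were lower as well. Capn11, a calpain gene, had 131, 543, 11 and 74 reads in the controls and 0, 0, 0 and 3 in the mutants. Igfbp4, Klhl9, Tmed8, Spred1, Pde3b and Capn11 did not overlap between the groups, and Lrmp and Myom1 did.

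Slc22a3, an organic cation transporter gene, passed in a fit of the 8 libraries alone and not in the fit of the series. It read 67.6, 67.7, 70.3 and 65.1 CPM in the mutants and 30.3, 32.3, 40.7 and 38 in the controls. The log2 fold change was 0.93 in both fits, with an SE of 0.30 in the fit of the series. In the fit of 8 libraries the edgeR adjusted p was 0.0389. The groups did not overlap, and the mutant libraries were tightly grouped, whereas mutant cells of 4 weeks ran from 65.7 to 106 CPM. At 2 weeks mutant cells without Il1b averaged 57.4 CPM (28.1 to 88.6) and those without Il1r1 36.2 (26.3 to 53.9). Their log2 fold changes against the shared controls were 0.69 (SE 0.29) and 0.03 (SE 0.29), and neither passed.

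The 6 calls of DESeq2 besides Echdc2 and Armc7 were genes read in 3 or fewer of the 8 libraries compared. Gp6, the platelet collagen receptor, had 10 and 95 reads in mutant libraries 3 and 4 and none in the other 6 libraries, at least 36.7-fold higher. Isl1, a homeobox factor of heart and neurons, had 244 reads in mutant library 3 and none in the rest of the 8, but reached 18.45 CPM in mutant cells without Il1r1 at 2 weeks. Sh3tc2 had 34, 10, 0 and 10 reads and Slco5a1 0, 0, 21 and 13 reads in the mutants and none in the controls, at least 18.9-fold and 11.9-fold higher. Gabrd had 0, 0, 91 and 9 reads and Ccbe1 9, 49, 0 and 18 reads in the controls and none in the mutants, at least 31.8-fold and 24.2-fold lower. These bounds set the empty group at 3 counts in all and cover counting error only.

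Mid1 and Wdfy1 showed how unlike the controls were. Mid1, an X-linked ubiquitin ligase of microtubules, read 27, 20.3, 25 and 13.7 CPM in the mutants and 26.5, 29.8, 1.54 and 4.03 in the controls (log2 0.48, SE 0.74). WT-labelled library 1 was in the mutant range, library 2 just above it and libraries 3 and 4 below it. Libraries 1 and 2 were thus divided from 3 and 4 as in pEGFP, and without WT-labelled libraries 3 and 4 the log2 fold change was −0.38. Mid1 fell in mutant cells without Il1b (0.382 CPM, log2 −5.32, SE 0.91, edgeR adjusted p = 0.0137) and without Il1r1 (0.641 CPM, −4.58, SE 0.87, adjusted p = 0.0434). Wdfy1, an endosomal adaptor, read 146, 158, 145 and 174 CPM in the mutants and 30.5, 79.1, 180 and 145 in the controls (0.50, SE 0.32), with WT-labelled library 1 at the level of mutant cells without Il1r1 (30.6 to 44.9). Flt3, a receptor of early progenitors, was 12.4, 6.22, 13.4 and 77.3 CPM in the controls and 27.5, 14.2, 52.8 and 24.2 in the mutants (log2 0.10, SE 0.74), with WT-labelled library 4 highest of all 8.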

How the data were processed

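Gene counts were those deposited by the authors for 25 libraries, a table of 13641 genes and 4 construct sequences. Libraries were prepared with PicoPure and SMART-Seq v4 per the labels' protocols. Per the submitters' processing notes the build was mm10, and the tools listed, without roles, are STAR 2.7.10a, featureCounts, FastQC 0.11.5 and R 4.2.2. The lowest maximum count of any gene was 32, so genes with fewer reads are not analysed here. GENCODE vM21 gave the symbol and position of 13623 genes.

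The gene test was edgeR 4.0.16 under R 4.3.3, a quasi-likelihood fit of 7 groups with robust dispersions, TMM scaling and the filterByExpr filter. Adjusted p (Benjamini-Hochberg) was read at 0.05, and the common dispersion was 0.1685. DESeq2 1.42.0 and limma 3.58.1 (voom with quality weights) were alternatives, beside other scalings, filters, sample sets and a replicate block. CPM are raw, and non-overlap was read on TMM log2 CPM with a prior count of 2. Constructs were compared as log2(CPM + 0.1) over gene totals by exact permutation in scipy 1.17.1. Intervals and floors cover counting error or the fit alone.

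Named genes were a set list, the genes that passed, the 6 of lowest p per direction, those called by DESeq2 or voom, neighbours of Echdc2 and up to 3 members per list of lowest p. Outside this rule, and named after their values were seen, were Mpo, Elane, S100a8, Ngp, Csf1r, Cxcr2, Cd34, Flt3, Slc22a3, Echdc1, Echdc3, Auh, Hoxb4, Mllt3, Bmi1, Angpt1, Meis1, Lifr, Bcl6, Gfi1b, Lmo2 and Nfe2. The libraries, lists and genes were chosen with earlier results of these data known. Marker genes without a row in the table, such as Cd3e, Itgax and Cdh5, are not analysed here, and some genes of the table are not reported.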

Additional observations from a re-analysis of the deposited data

Results flagged for a closer look

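Of 118 genes and constructs looked at in both groups, 21 single libraries stood far from the other 3 of their group by Dixon's criterion for 4 values on the log2 scale; chance flags about 1 in 20 groups, and 236 groups were looked at. Among the controls, Il1b was read in WT-labelled library 2 alone (0.139 CPM), Il1rl1 in library 4 alone (0.218), Chil3 in library 1 alone (0.337) and CreERT2 in library 3 alone (0.0366, 1 read). Il1r1 was low in WT-labelled library 3 (6.11 CPM against 16.3 to 20.6 in the others), as was Kdm5d (2.85 against 45 to 50.3). Slamf1 was high in WT-labelled library 1 (156 CPM against 75.8 to 82.9). In WT-labelled library 2, Tmed8 was high (33.4 CPM against 25.3 to 27.4) and Csf2rb low (3.23 against 14.2 to 19.3). Zyg11b was low in WT-labelled library 4 (39.4 CPM against 52.3 to 52.6).

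Among the mutants, library 2 was apart for 6 genes: Klhl9 (124 CPM against 87.6 to 91.3), Tyk2 (63.1 against 79 to 81.7), Ccnd2 (736 against 664 to 673), Chil3 (17.9 against 0 to 0.0455), Siglech (0.445 against 0) and Lifr (0.286 against 0). Isl1 was read in library 3 alone (9.56 CPM) and Capn11 in library 4 alone (0.136). Library 4 was also apart for Meis1 (588 CPM against 676 to 687) and Ngp (0.728 against 0.349 to 0.392), and library 1 for Angpt1 (908 against 982 to 985).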

How the results depend on the processing

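Echdc2 passed in all 20 alternatives of the gene test and was the 1 call in 17 of them. The count of calls was 8 with DESeq2, 2 with limma voom (Armc7 and Echdc2) and 3 in a fit of the 8 libraries alone (with Echdc2 and Slc22a3 among them), and the cause was not tested. Replicate numbers did not pair the libraries: deviations of same-numbered libraries correlated at −0.065 to 0.0307 across genes, and no control correlated best with its own number. With the replicate number as a block 1 gene was called. Leaving out WT-labelled libraries 3 and 4 gave 9.05 (JAK2 part 1), 7.59 (part 2), 11.50 (CreERT2) and −0.61 (pEGFP) on the log2 scale, with an adjusted exact permutation p of 0.133, which is the smallest that 2 against 4 allows. With each library left out in turn, JAK2 part 1 ran from 8.30 to 9.17, part 2 from 7.75 to 8.26 and CreERT2 from 11.33 to 11.50, at the smallest exact permutation p of 3 against 4 (0.0571, adjusted 0.0762). Few libraries thus limit these p-values.

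Among named genes 2170 values over the alternatives kept their direction and side of the threshold, 9 came to pass and 33 turned direction, none of which passed. Without WT-labelled libraries 3 and 4 these were Il1r1 (−0.18), Mid1 (−0.38), Ddx3y (−0.10), Kdm5d (−0.02), Nfe2 (0.00) and Gabrd (0.00, no reads left). Without WT-labelled libraries 1 and 2 they were Slamf1 (0.06), Wdfy1 (−0.08), Flt3 (−0.64), Gfi1b (0.02), Lmo2 (0.01) and Zyg11b (0.08). With each library left out in turn, Il1r1 ran from −0.12 to 0.36, Ddx3y from −0.03 to 0.52, Isl1 from 0.00 to 9.50, Chil3 from −2.22 to 9.97, Flt3 from −0.34 to 1.48, Gfi1b from −0.14 to 0.11 and Zyg11b from −0.09 to 0.09, while Stat5a reached 0.00 and Slamf1 0.06. Zyg11b, at 0.00 in the report, was 0.03 with limma voom and 0.02 with the replicate block. Medians of lists kept within their spread in 671 cases and moved beyond it in 9. Depth limits genes at a mean log2 CPM under 1, whose median SE was 1.36.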
